A study of Mus musculus with 2 samples.

Results

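The small leucine-rich proteoglycans and a few partner proteins of the extracellular matrix were followed in the mouse uterus at gestation day 2.5, before implantation. The 10 genes were chosen by symbol, and each had 1 row in a table of 14678 genes. They are Dcn and Bgn of class I, Lum, Fmod and Prelp of class II and Ogn of class III of the small leucine-rich family, the large proteoglycans Vcan and Hspg2, and the matrix proteins Sparc and Sparcl1, which are glycoproteins of other families. The label of small leucine-rich proteoglycans thus covers 6 of the 10 genes.

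All mice carried the same alleles, VEGFtetO/tetO with beta-AKtg/wt, in which tet operators sit in the VEGF promoter and a tetR-Krab repressor is made in all tissues from a beta-actin promoter. In the Dox+ group doxycycline chow kept the repressor off the promoter, and the labels call this group VEGF-normal (wild type) although it carries both transgenes. In the Dox- group doxycycline was withdrawn at a young age, and the repressor, present in all tissues, could act on VEGF throughout the animal. The females of both groups were littermates and were mated with VEGFtetO/tetO males. RNA of 3 uteri in each group was pooled and sequenced as 1 library by digital gene expression (DGE), in which short tags are counted for each gene. Doxycycline itself differed between the groups, so that its presence and the VEGF level cannot be told apart. With 1 library in each group there is no replicate check, and the intervals given are 95% intervals that cover counting error only.

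Small leucine-rich proteoglycans are secreted proteins with a curved core of leucine-rich repeats that binds collagen fibrils, and most carry chondroitin, dermatan or keratan sulfate chains. They set the width and spacing of collagen fibrils and bind growth factors such as TGFβ. Fibroblasts of the stroma are their main source in most soft tissues, and the uterine stroma remodels its collagen as pregnancy begins. Perlecan, the product of Hspg2, is a heparan sulfate proteoglycan of basement membranes, versican, the product of Vcan, holds hyaluronan in loose matrix, and Sparc is a collagen-binding glycoprotein of remodeling tissue.

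The libraries held 5985925 clean tags in Dox+ and 5844314 in Dox-, of which 74.1% and 72.2% were assigned to a gene of the table. Vegfa, the repressed gene, had 247 copies in Dox+ and 125 in Dox-, 1.93-fold fewer after scaling to the clean tags (95% interval 1.55 to 2.41). All 5 uterine markers, Pgr, Esr1, Hoxa10, Hoxa11 and Foxa2, had tags in both libraries, although Hoxa10 and Hoxa11 were lower in Dox- (log2 ratios -1.52 and -1.68) and Pgr and Esr1 higher (0.90 and 0.70). A gene was counted as different when its log2 ratio, Dox- over Dox+, of TPM (here tag copies divided by all clean tags, whatever the length of the transcript) was above 0.5 or below -0.5 and both libraries together had at least 200 copies, the limits of the study's methods. The 6547 genes with enough copies are called tested genes, although the design allows no test of the conditions. Of them 18.8% were higher and 17.8% lower in Dox- by this rule, and their median log2 ratio was 0.03.

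Of the 10 genes, 8 had at least 200 copies. Lum and Ogn were higher in Dox-, Bgn and Hspg2 were lower, and Dcn, Vcan, Sparc and Sparcl1 stayed within the limits. The 4 that differed among these 8 stand beside 36.6% of all tested genes in either direction, and with so few genes nothing particular to them is read from the counts. Their log2 ratios ran from -0.71 to 1.59 with a median of -0.03, and 4 were positive and 4 negative. Prelp and Fmod had 159 and 32 copies in both libraries together and were not counted.

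To show the DNA in front of the genes that differed, the 250 bases before the transcript start that RefSeq gives are printed for Ogn, Bgn and Hspg2, which have an entry in the RefSeq promoter table (build GRCm38.p6). These 3 were picked after their values were known. Of the 10 genes, 7 had an entry, and Lum, Dcn and Sparcl1 did not. Each sequence had 1 exact match in NCBIM37, the assembly also called mm9, which gives the positions. GENCODE, the source of the gene positions given here, sets other starts: the last 84 bases of the Hspg2 sequence lie inside its gene, and 56 bases separate the Ogn sequence from its gene. Capitals mark matches, on either strand, to 3 short motifs, and overlapping matches were each counted. The motif of the TATA element was searched as TATAAA. For the GC element the letters searched were GGGCGG. The last motif, bound by nuclear factor Y, was searched as CCAAT.
Ogn, chr13:49703134-49703383, plus strand: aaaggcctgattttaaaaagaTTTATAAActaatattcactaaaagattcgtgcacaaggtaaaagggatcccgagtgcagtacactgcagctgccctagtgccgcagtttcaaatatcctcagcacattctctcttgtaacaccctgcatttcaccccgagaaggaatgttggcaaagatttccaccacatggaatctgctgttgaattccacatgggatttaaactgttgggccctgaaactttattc
Bgn, chrX:70728690-70728939, plus strand: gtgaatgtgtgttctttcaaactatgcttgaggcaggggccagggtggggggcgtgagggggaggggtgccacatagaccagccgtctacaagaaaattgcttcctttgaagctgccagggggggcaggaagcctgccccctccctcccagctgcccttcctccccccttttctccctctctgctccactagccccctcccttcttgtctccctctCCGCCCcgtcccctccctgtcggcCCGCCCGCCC
Hspg2, chr4:137024468-137024717, plus strand: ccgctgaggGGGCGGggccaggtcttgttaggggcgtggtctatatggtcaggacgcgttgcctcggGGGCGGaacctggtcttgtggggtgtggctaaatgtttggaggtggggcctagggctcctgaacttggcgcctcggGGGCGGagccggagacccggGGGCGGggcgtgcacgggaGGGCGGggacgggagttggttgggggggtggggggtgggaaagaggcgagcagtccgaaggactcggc
The Ogn sequence had a GC content of 42% and held 2 overlapping TATAAA matches, 1 on each strand. The Bgn sequence had a GC content of 64.4% and held 3 GGGCGG matches, and that of Hspg2 had one of 70% and held 5 GGGCGG matches, 2 of them wholly or partly in the stretch inside the GENCODE gene. None of the 3 held CCAAT. Among 27025 promoters of the same length, 13.0% held TATAAA, 32.9% held GGGCGG and 34.5% held CCAAT, and the median GC content was 52%. These are matches of letters and not shown to be sites of a factor.

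Osteoglycin, the product of Ogn and also called mimecan, is a small class III member with keratan sulfate forms that takes part in collagen fibril assembly. Ogn (chromosome 13, 49703440 to 49719869, plus strand) had 290 copies in Dox+ and 852 in Dox-. In TPM its level was 48.4 (43.0 to 54.4) in Dox+ and 145.8 (136.2 to 155.9) in Dox-, a 3.01-fold higher level in Dox- (2.63 to 3.45). The intervals of the libraries lie far apart, and Ogn moved from rank 2865 to rank 841 of the genes in the table. It was the member with the largest difference in either direction, and the only one of the 8 past 2-fold, where 10.2% of all tested genes stood, 4.61% higher and 5.62% lower.

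Lumican, the product of Lum, is a class II member that can carry keratan sulfate chains. Lum (chromosome 10, 97028135 to 97035337, plus strand) had 1549 copies in Dox+ and 2779 in Dox-, or 258.8 and 475.5 TPM. The level in Dox- was 1.84-fold higher (1.73 to 1.96), a log2 ratio of 0.88. Among the small leucine-rich genes Lum had the most copies in both libraries.

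Decorin, the product of Dcn, carries a single chondroitin or dermatan sulfate chain, binds collagen type I fibrils and also binds TGFβ. Dcn (chromosome 10, 96942245 to 96980777, plus strand) had 1146 copies in Dox+ and 1407 in Dox-, or 191.4 and 240.7 TPM. Its log2 ratio of 0.33 (0.22 to 0.44) was larger than counting error but within the limits.

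Biglycan, the product of Bgn, is the closest relative of decorin, carries a pair of chains and can act on Toll-like receptors when released from the matrix. Bgn (chromosome X, 70728941 to 70741272, plus strand) had 950 copies in Dox+ and 601 in Dox-, or 158.7 and 102.8 TPM. It was 1.54-fold lower in Dox- (1.39 to 1.71), so that the log2 ratios of these class I genes had opposite signs, with Dcn within the limits. There were 1.21 tags of Dcn for each tag of Bgn in Dox+ and 2.34 in Dox-, a 1.94-fold change of the ratio (1.71 to 2.21) that does not depend on the library sizes. Together the class I genes had 350.2 TPM in Dox+ and 343.6 in Dox-, a sum in which the opposite signs do not show.

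The remaining class II genes were at low levels. Prelp (chromosome 1, 135806881 to 135817991, minus strand), which encodes a protein that anchors basement membranes to the collagen beneath, had 104 copies in Dox+ and 55 in Dox-. Its log2 ratio of -0.88 (-1.38 to -0.40) rests on 159 copies, fewer than the limit of 200. Fmod (chromosome 1, 135933831 to 135944854, plus strand), which encodes fibromodulin, a regulator of fibrils in tendon, had 17 and 15 copies. The interval of its log2 ratio, -1.25 to 0.94, is too wide to show a difference at this depth. The ratio of Lum to Prelp tags was 14.9 in Dox+ and 50.5 in Dox-, and that of Lum to Fmod was 91.1 and 185.3.

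The 6 small leucine-rich genes together had 4056 copies in Dox+ and 5709 in Dox-, or 677.6 and 976.8 TPM, and Lum held more of them than any other. The ratio of Dcn to Lum tags was 0.74 in Dox+ and 0.51 in Dox-, and that of Dcn to Ogn tags 3.95 and 1.65. Within this set the composition of the tags therefore differed between the libraries, with a larger share of Lum and Ogn in Dox-.

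**Figure D1:**
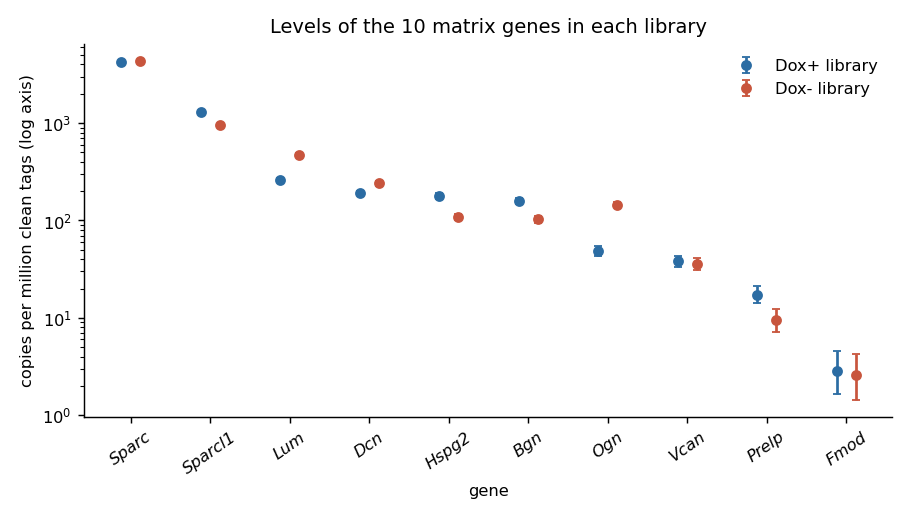
Level in TPM (tag copies scaled to the clean tags; log axis) of each of the 10 genes in the Dox+ library (blue) and the Dox- library (red), with exact 95% Poisson intervals of the copy number. Lum and Ogn lie higher in Dox-, Hspg2 and Bgn lie lower, and the values of Sparc, 4220 and 4293, nearly coincide.

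Perlecan carries heparan sulfate chains and binds growth factors, VEGF among them, in basement membranes of vessels, muscle and epithelium. Hspg2 (chromosome 4, 137024634 to 137126545, plus strand) had 1067 copies in Dox+ and 637 in Dox-, or 178.3 and 109.0 TPM. It was 1.64-fold lower in Dox- (1.48 to 1.81), and its rank went from 647 to 1193. Versican belongs to the proteoglycans that bind hyaluronan, and its gene Vcan (chromosome 13, 89794915 to 89882117, minus strand) had 229 and 210 copies. The interval of its log2 ratio, -0.37 to 0.19, includes 0. The annotation lists 9 protein-coding transcripts of Vcan, and the tag counts do not tell them apart. The ratio of Vcan to Hspg2 tags was 0.21 in Dox+ and 0.33 in Dox-, 1.54-fold higher (1.24 to 1.90).

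Sparc (chromosome 11, 55208002 to 55233582, minus strand) encodes osteonectin, a counter-adhesive glycoprotein that binds collagen and calcium. With 25262 copies in Dox+ and 25092 in Dox- it stood at rank 8 and rank 5 of all genes in the table. Its level was 4220 TPM in Dox+ (4168 to 4273) and 4293 in Dox- (4240 to 4347). The interval of the log2 ratio, -0.00046 to 0.05, includes 0 and leaves room for no more than a small difference by counting error alone. With summed gene copies as library size the interval was 0.04 to 0.09. With an assumed coefficient of variation of 0.2 between pools it was -0.78 to 0.82. Sparc alone supplied most of the 38437 copies of the 10 genes in Dox+ and of the 37186 in Dox-.

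Sparcl1, also called hevin, encodes the closest relative of Sparc and is known from vessel walls and smooth muscle as well as from brain. Sparcl1 (chromosome 5, 104508130 to 104543107, minus strand) had 7823 copies in Dox+ and 5538 in Dox-, or 1307 and 947.6 TPM. It was 1.38-fold lower in Dox- (1.33 to 1.43), and its log2 ratio of -0.46 (-0.51 to -0.41) lies just inside the limit of -0.5, which its interval includes. The ratio of Sparc to Sparcl1 tags was 3.23 in Dox+ and 4.53 in Dox-, 1.40-fold higher (1.35 to 1.46).

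**Figure D2:**
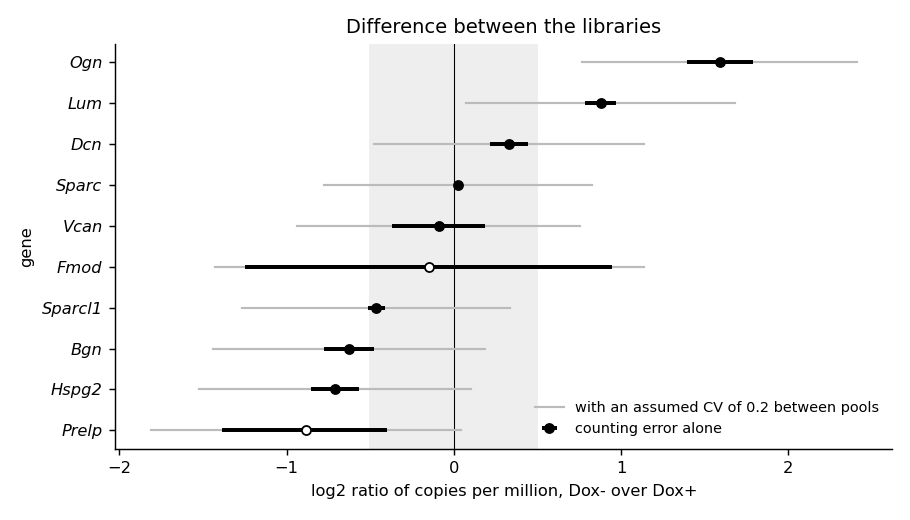
Log2 ratio of TPM, Dox- over Dox+, of each gene, with 95% intervals for counting error (black) and with an assumed coefficient of variation (CV) of 0.2 between pools added (grey line). The shaded band marks -0.5 to 0.5 and open circles mark the genes with fewer than 200 copies; with the added variation the intervals of Ogn and Lum alone stay clear of 0.

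The spread between pools of uteri is unknown with 1 library in each group. With an assumed coefficient of variation of 0.2 the interval of the log2 ratio of Ogn was 0.77 to 2.41 and that of Lum 0.07 to 1.68, while those of Bgn, -1.44 to 0.19, and Hspg2, -1.52 to 0.10, included 0. With 0.4 the interval of Ogn, -0.02 to 3.20, included 0 as well.

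Levels of different genes were set side by side in TPM per kilobase of the longest annotated transcript, and then in TPM alone. In Dox+ the order by TPM per kilobase was Sparc with 1835, Sparcl1 with 419.7, Lum with 124.7, Dcn with 108.9, Bgn with 66.8, Ogn with 19.1, Hspg2 with 12.6, Prelp with 4.81, Vcan with 3.08 and Fmod with 0.91. All neighbors in this order were apart by their counting intervals. In Dox- the order was Sparc with 1867, Sparcl1 with 304.3, Lum with 229.2, Dcn with 136.9, Ogn with 57.4, Bgn with 43.3, Hspg2 with 7.68, Vcan with 2.89, Prelp with 2.60 and Fmod with 0.82. Ogn and Bgn had changed places, and Vcan and Prelp could not be ordered in Dox- within counting error. The place of Vcan and Prelp depends on the division by length: in TPM alone Vcan stood above Prelp in both libraries, with 38.3 against 17.4 in Dox+ and 35.9 against 9.41 in Dox-, apart by their intervals. A tag count need not grow with length, and across 13598 genes the rank correlation of length with copies in Dox+ was -0.06. The orders per kilobase may therefore not be those of the numbers of transcripts. Without the division by length Hspg2, a gene with a very long transcript, stood above Bgn in both libraries, within counting error in Dox-. Hspg2 also stood above Ogn in Dox+, with 178.3 against 48.4, the reverse of the order per kilobase. In Dox- Ogn stood above Hspg2, with 145.8 against 109.0. In Dox+ Dcn and Hspg2 overlapped as well as Hspg2 and Bgn and Ogn and Vcan.

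**Figure D3:**
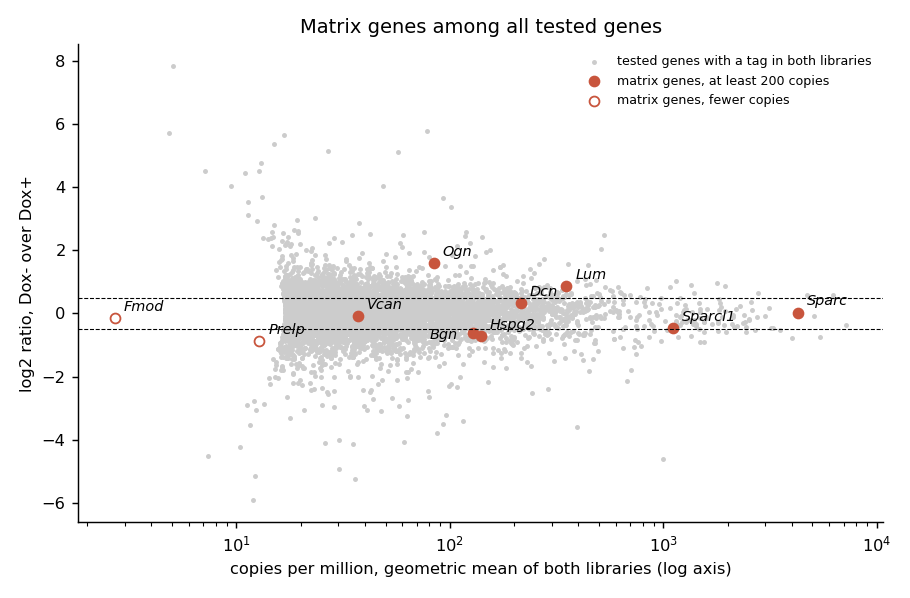
Log2 ratio, Dox- over Dox+, against the geometric mean of TPM in both libraries (log axis), for the 10 genes (red, named; open circles have fewer than 200 copies) and the tested genes with a tag in both libraries (grey). Dashed lines mark -0.5 and 0.5; Ogn and Lum lie above the upper line, and Bgn, Hspg2 and the untested Prelp lie below the lower one.

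Several small leucine-rich genes lie side by side in the genome, a feature that was not used to choose them. On chromosome 10 Dcn and Lum are 47.4 kb apart with no protein-coding gene between them, and both had positive log2 ratios, 0.33 and 0.88. On chromosome 13 the genes Ecm2, Aspn, Omd and Ogn follow each other in this order on the plus strand. Ogn was 3.01-fold higher in Dox-, and Aspn, which encodes asporin, had 63 and 117 copies, a log2 ratio of 0.93 (0.47 to 1.39). Omd, which encodes osteomodulin, had 5 and 10, and the interval of its log2 ratio, -0.65 to 2.93, includes 0. Ecm2, the outermost gene of this row, had 61 and 31 copies, a log2 ratio of -0.94 (-1.62 to -0.30), the direction opposite to Ogn and Aspn. On chromosome 1 Optc, Prelp and Fmod lie within one region, and Optc, next to Prelp, had 52 and 56 copies. None of Aspn, Omd, Ecm2 and Optc reached 200 copies, and Kera and Epyc, which follow Lum on chromosome 10, were not analysed here. In the deposited annotation, 6 of the 10 genes, Bgn, Fmod, Prelp, Ogn, Vcan and Sparcl1, share the term extracellular matrix.

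Of 8 other small leucine-rich genes in the table only Tsku, which encodes tsukushi, an antagonist of growth factors, had enough copies, with 153 in Dox+ and 74 in Dox-. Its log2 ratio was -1.01 (-1.43 to -0.60). Of the SPARC family, Fstl1, Smoc2 and Smoc1 had enough copies, and none of these 3 passed the limits with the clean tags as library size, while 1 was lower with TMM or the median ratio. Fstl1, a secreted follistatin-like protein, had 4617 and 3212 copies, a log2 ratio of -0.49 beside -0.46 of Sparcl1. Smoc2 had 2338 and 2584 copies and Smoc1 773 and 569.

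Among 10 tested genes for other proteoglycan core proteins 3 were higher and 4 lower in Dox-, with a median log2 ratio of -0.43, beside 18.8% and 17.8% of all tested genes. With TMM or median-ratio library sizes these became 2 higher and 5 lower. Sdc1, the epithelial syndecan, and Srgn, the proteoglycan of secretory granules, had log2 ratios of 0.51 and 0.70. Col18a1, whose product is a heparan sulfate proteoglycan of basement membranes like perlecan, had 1635 and 821 copies, a log2 ratio of -0.96, whereas Agrn, another such gene that was picked after its values were seen, had 930 and 1319 copies and a log2 ratio of 0.54. Gpc3, a glypican, had a log2 ratio of -1.73, and Cspg4, a proteoglycan of pericytes, one of -1.40. The basement membrane proteoglycans therefore did not share 1 direction.

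The chains of these proteins are built by a common set of enzymes. Of 20 tested genes for them 4 were higher and 4 lower, with a median of -0.11, beside 18.8% and 17.8% of all tested genes. Xylt2, which starts a chain on the core protein, had 202 and 81 copies, and Chpf, which helps to lengthen chondroitin chains, had 1196 and 387, a log2 ratio of -1.59. Chst14, which sulfates dermatan, had 300 and 108 copies, and Chst11, which sulfates chondroitin, had 198 and 397. Slc35b2 and B3gat3, the other genes of the list with the most copies, had log2 ratios of 0.16 and 0.12. Cd44, the receptor of hyaluronan, had 1078 and 633 copies, a log2 ratio of -0.73, and Hyal2, the other tested gene of the hyaluronan list, had 124 and 106. Tnfaip6, which links hyaluronan to other matrix proteins, had 67 and 64 copies and was not tested.

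Of 8 tested genes for enzymes that cleave proteoglycans or their partners 3 were higher and 2 lower. Mmp2 had 3962 and 2006 copies, a log2 ratio of -0.95, Htra1 had 1172 and 2054, one of 0.84, and Mmp14 had 1063 and 916. Of 4 tested genes for growth factors and receptors known to bind these proteins 1 was higher and 1 lower, and Tgfbr2, with the most copies, had a log2 ratio of -0.04. Tgfbr1, the other TGFβ receptor of the list, had 157 and 184 copies, and Igf1r, the receptor of IGF1, had 105 and 150, a log2 ratio of 0.55. Of 16 tested collagens and matrix partners 5 were higher and 5 lower, with a median of -0.16. Col1a1, Col1a2 and Col6a1 had log2 ratios of 0.58, 1.04 and 0.63, Col3a1 one of -0.08, and Tnc and Thbs1 were at -1.42 and -1.30. For each tag of Col1a1 there were 1.10 tags of Sparc in Dox+ and 0.74 in Dox-, 1.47-fold fewer (1.44 to 1.51). Bgn to Col1a1 was 2.31-fold lower in Dox- (2.09 to 2.57), Dcn to Col1a1 1.19-fold lower (1.10 to 1.29), and Hspg2 to Col4a1, the basement membrane collagen, 1.32-fold lower (1.17 to 1.48). Over the 64 tested genes of these lists 16 were higher and 18 lower, beside 18.8% and 17.8% of all tested genes, and their median was -0.18, where that of all tested genes was 0.03.

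**Figure D4:**
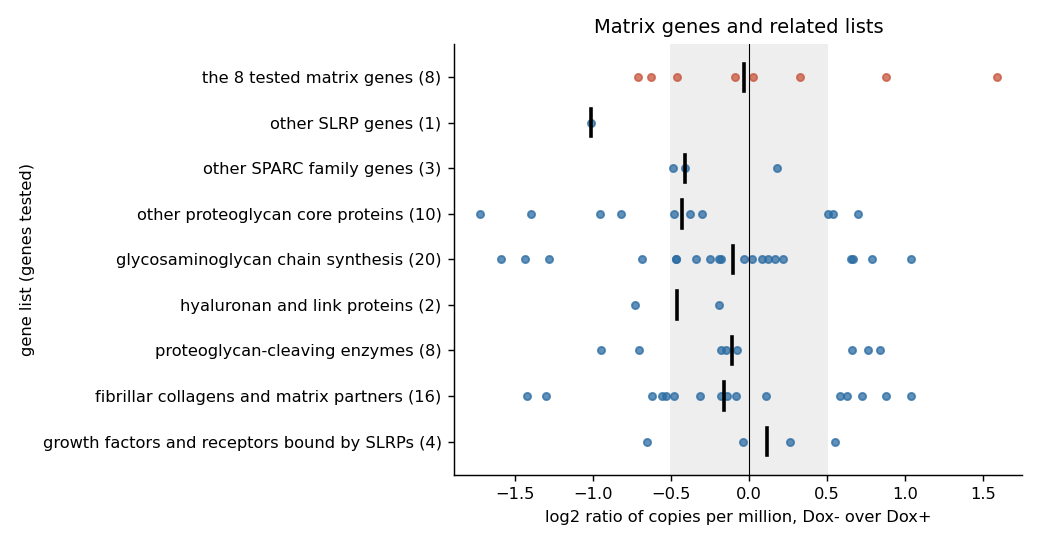
Log2 ratio, Dox- over Dox+, of each gene with at least 200 copies in the 8 tested genes (red) and in the related lists (blue), with the median of each list as a black bar and the number of genes in parentheses; SLRP stands for small leucine-rich proteoglycan. Genes lie on both sides of the shaded band from -0.5 to 0.5 among the 8 genes, among the other proteoglycan core proteins and among the genes for chain synthesis.

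A uterus holds several cell types, and in bulk RNA fewer cells of a type and less RNA in each cell cannot be told apart. Markers of smooth muscle had 6498 TPM in Dox+ and 4483 in Dox- in sum, with 6 of 7 lower. Among these, Myh11, Actg2 and Acta2 had log2 ratios of -0.51, -0.51 and -0.57, and their intervals include the limit of -0.5. Markers of endothelium summed to 232.9 and 148.7, with 3 of 4 tested genes lower, and those of pericytes to 101.9 and 64.7, with 2 of 2 lower. These sums were lower in Dox-, like Hspg2, Sparcl1 and Bgn. The sums of the uterine, stromal fibroblast, adipocyte, mesothelium and skeletal muscle markers were lower as well. Those of epithelium, leukocytes and erythroid cells were higher, like Lum and Ogn, although the erythroid marker Alas2 had fewer copies in Dox-. Of all tested genes 17.8% were lower and 18.8% higher by the limits. The uterine markers summed to 1099 and 580.4, with 2 of 4 tested genes higher and 2 lower. Markers of stromal fibroblasts summed to 1089 and 801.8, with 2 of 6, Hand2 and Vim, lower and none higher. Log2 ratios were -2.75 for Hand2, -0.60 for Vim, -0.43 for Pdgfra, -0.41 for Pdgfrb, 0.002 for Thy1 and 0.13 for Col15a1. The sum thus does not stand for all 6 genes. Markers of epithelium summed to 966.4 and 1536, with 3 of 7 higher and none lower. Markers of adipocytes summed to 245.2 and 191.6, with 1 of 3 tested genes lower. Those of mesothelium summed to 66.2 and 30.3 and of skeletal muscle to 579.4 and 216.6, each with 1 tested gene, which was lower. Most copies of these sums came from 1 gene each, Wt1 with 325 and 157 and Acta1 with 3385 and 1241. Leukocyte markers summed to 80.5 and 117.5, with none of 2 tested genes past the limits. Erythroid markers summed to 7.85 and 21.1 with no tested gene. Hba-a1 had 26 and 114 copies and Alas2 had 21 and 9. No marker with a row in the table was at 0 in either library. The part of these cell types in the values of the 10 genes was not tested.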

How the data were processed

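DGE tag profiling was performed on pooled RNA of 3 uteri in each group. Tags were cleaned by the authors, who discarded empty adaptors, poor reads and singletons, and those that matched 1 mouse reference mRNA (mm9) were counted. The aligner and the restriction enzyme are not given in the sources used here, nor is whether antisense tags are in the copy numbers, and the labels mention fragmentation of mRNA. The deposited counts are copy numbers per gene without normalization. The deposited TPM values are copies scaled to the clean tags without a length correction, from which the clean tags were recovered. The log2 ratio, the ratio with its inverse, the P-value and the FDR that the authors deposited are their own comparison and were not used.

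The design gave no test between the groups. Levels carry exact Poisson intervals and ratios exact Clopper-Pearson intervals at 95%. Ratios between 2 genes carry intervals by normal approximation on the log scale. PCR duplicates were not removed by molecular identifiers. A floor of 3 copies stands in only where a library had no copy of a gene. The fold limit and the 200 copies follow the study's methods, and its Audic-Claverie test was an alternative, because it takes counting error as the sole error. Positions and transcript lengths are from GENCODE on NCBIM37. The members and lists were chosen with earlier results of these data known. Named genes are the 10 members, Vegfa, and for each list the 3 with the most copies and those past 2-fold with at least 200 copies (4 at most). The neighbors on the chromosomes and further genes named with values were chosen after values were seen. Genes of like pattern were not sought, since 2 libraries give 1 ratio each. Intervals and limits were tested on simulated counts with counting error alone, which cannot show how they hold with variation between pools. TMM factors came from edgeR 4.0.16 (R 4.3.3); all else was done in Python 3.11.15 (pandas 2.3.3, numpy 2.4.6, scipy 1.17.1, matplotlib 3.10.9).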

Additional observations from a re-analysis of the deposited data

How the results depend on the processing

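The counts of 2 higher and 2 lower genes were the same with TMM, median-ratio or summed gene copies as library size, with a fold of at least 1.5, with an FDR below 0.05 in the Audic-Claverie test and with a pseudocount of 1 TPM. From 20 copies, or with no filter, Prelp was added to the lower genes. At a fold of at least 2 there was 1 higher gene, Ogn, and 0 lower. With an assumed coefficient of variation of 0.2 there were 0 lower genes, and with 0.4 there were 0 higher and 0 lower. The summed tags of the 10 genes had a log2 ratio of -0.01, which became 0.025 with summed gene copies, -0.038 with TMM and -0.048 with the median ratio, none of them past the limits.

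Of all genes, 1231 were higher and 1168 lower. These became 1385 and 1059 with summed gene copies as library size, 1165 and 1243 with TMM and 1131 and 1268 with the median ratio. From 20 copies, where 12079 genes were tested, they became 2792 and 2628, and with no filter 3810 and 3779 of 14678. They were 994 and 961 at 1.5-fold and 302 and 368 at 2-fold. They were 478 and 518 with a coefficient of variation of 0.2 and 87 and 105 with 0.4. The related lists had 16 higher and 18 lower genes, which became 16 and 17 with summed gene copies, 15 and 21 with TMM and 15 and 23 with the median ratio. In these lists there were 33 and 36 from 20 copies and 40 and 43 with no filter. There were 12 and 16 at 1.5-fold, 2 and 8 at 2-fold, 4 and 11 with 0.2, and 0 and 1 with 0.4. The looser filters and the stricter limits change these counts by their construction. No paired analysis was possible because each group has 1 library, and for the same reason no replicate could be left out.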

Other observations

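Of the genes in the lists of related matrix genes, 67 had fewer than 200 copies in both libraries together and were not counted. In 7 of them the whole counting interval of the log2 ratio lay above 0.5 and in 11 below -0.5. Of all 8131 genes with as few copies, 6.65% lay above and 7.13% below in the same way, and the difference from the lists was not tested. The genes named here were chosen after their values were seen. Of the SPARC family, Spock2, which encodes testican-2, a secreted proteoglycan, had 153 copies in Dox+ and 27 in Dox-, 5.53-fold lower (3.66 to 8.67), whereas its relative Spock3 had 3 and 35, 11.9-fold higher (3.77 to 60.7). Of the link proteins of hyaluronan, Hapln1 had 29 copies in Dox+ and 0 in Dox-. With the floor of 3 copies in Dox- it was 9.44-fold lower. Its counting interval, without the floor, started at 7.20-fold lower. Hapln4 had 2 and 46 copies, 23.6-fold higher (6.16 to 200.3). Mmp3, stromelysin-1, which cleaves proteoglycan cores, had 98 and 5 copies, 19.1-fold lower (7.93 to 60.2), and Adamts5, a versican-cleaving enzyme, had 141 and 43, 3.20-fold lower (2.26 to 4.62). Met, a receptor tyrosine kinase to which decorin can bind, had 21 and 100 copies, 4.88-fold higher in Dox- (3.02 to 8.22). Intervals cover counting error only.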
